A study of Mus musculus with 4 samples.

Results

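The genes described here are 10 reported direct targets of miR-124 that do not belong to the neuronal programme itself: Lamc1, Itgb1, Plod3, Iqgap1, Rhog, Vamp3, Cd164, Slc16a1, Ahr and Cdk6. They were taken by symbol from the 48897 genes listed in the deposited count table of mouse retina, and all 10 were found. The table holds 4 libraries, 2 from the anti-miR-124 and 2 from the NC group, all of wild type C57BL/6 mice (C57BL/6J in the study's methods) whose retinas were taken at postnatal day 9. In both groups the eyes had been injected into the vitreous at postnatal day 3, that is 6 days earlier, with 0.6 nmol of oligonucleotide in 1 μl of saline. The left eyes received the miR-124-3p antagomir, a chemically modified antisense RNA that binds the mature microRNA, and the right eyes an equal amount of a scrambled sequence. The antagomir and the left eye therefore cannot be told apart. The retinas of each group were mixed, from at least 2 litters, so the spread between libraries is that between mixtures and not between mice. The study's methods give the number of retinas by group and not by library. They speak of 1 biological replicate in one place and of 2 in another, so the 2 libraries of a group may not be independent. The library names carry a number shared by 1 left-eye and 1 right-eye library, and these couples are referred to as pair A and pair B. Where values are given by group, pair A stands first.

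miR-124 is one of the most abundant microRNAs of neurons and of the neural retina. A microRNA guides the silencing complex to messenger RNAs whose 3′ UTR pairs with its seed, and the bound messenger is translated less and degraded. In neurons, miR-124 is known for keeping down transcripts that belong to non-neuronal cells and to dividing progenitors, including genes of cell adhesion, the actin cytoskeleton, membrane traffic, transport and the cell cycle. When a microRNA is blocked, the transcripts that it represses are the ones whose level can rise. These libraries do not measure mature miR-124-3p. The study states that RT-qPCR had shown it to be significantly reduced before the sequencing, and its text gives no size of the reduction.

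The sites at which miR-124-3p could pair with the 10 messengers are shown first, because they are what the genes have in common. The 3′ UTRs were searched on the transcript strand for GTGCCTT, the complement of bases 2 to 8 of the microRNA (7mer-m8), for GTGCCTTA, the same run followed by an A (8mer), and for TGCCTTA, the complement of bases 2 to 7 followed by an A (7mer-A1). The 8mer contains both shorter motifs and was counted only as an 8mer. Every one of the 10 genes held at least 1 site in its longest annotated 3′ UTR (GENCODE M21), against 19.7% of the 20966 genes with an annotated 3′ UTR, and 6 of them held an 8mer, against 2.69%. Among the 12129 genes with a 3′ UTR between 387 and 2740 bases, the range of the members other than Cdk6, 19.3% held a site. Cdk6 has a 3′ UTR of 10217 bases, and of the 62 genes with at least 10000 bases 83.9% held a site. The genes were chosen as reported targets, so the presence of sites is a description of the choice and not a finding. For each gene, 1 site of its longest kind is printed below from its transcript, to show the pairing letters beside their context, 5′ to 3′, with the seed complement in capitals.
Lamc1: cctgtgaggcctcgGTGCCTTgaca
Itgb1: gctgaggtcacagtGTGCCTTttta
Plod3: ccttctctgccactGTGCCTTgttg
Iqgap1: actgtattccaagaGTGCCTTAccaa
Rhog: gtctgcccccagctGTGCCTTAagga
Vamp3: gacaatagcagggtGTGCCTTAtttt
Cd164: tctaatgttttcaaGTGCCTTActtg
Slc16a1: gaagattataatatGTGCCTTAagtt
Ahr: ttagatgttcctctGTGCCTTAtgtt
Cdk6: aacagtatccccttGTGCCTTtgta

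In GRCm38, these windows lie in the 3′ UTR exons at chr1:153221409-153221433 on the minus strand (Lamc1), chr8:128732307-128732331 on the plus strand (Itgb1), chr5:136996282-136996306 on the plus strand (Plod3), chr7:80713106-80713131 on the minus strand (Iqgap1) and chr7:102239582-102239607 on the minus strand (Rhog). Those of Vamp3, at chr4:151048558-151048583, and of Ahr, at chr12:35499831-35499856, are on the minus strand. Those of Cd164, at chr10:41530376-41530401, of Slc16a1, at chr3:104656004-104656029, and of Cdk6, at chr5:3521985-3522009, are on the plus strand. The members differed in the number and kind of their sites. Cd164 was alone among the 10 in having 2 8mers. Rhog had 3 sites, 1 of each kind, in a 3′ UTR of only 546 bases, and Vamp3 had an 8mer and 2 7mer-m8 sites in 1730 bases. Lamc1 had 3 sites and Itgb1 had 2, none of them an 8mer. Plod3 had a single 7mer-m8 site at base 35 of a 3′ UTR of 387 bases, while Slc16a1 and Ahr had a single 8mer each. In Cdk6, 3 of the 4 sites were of the 7mer-A1 kind.

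**Figure D1:**
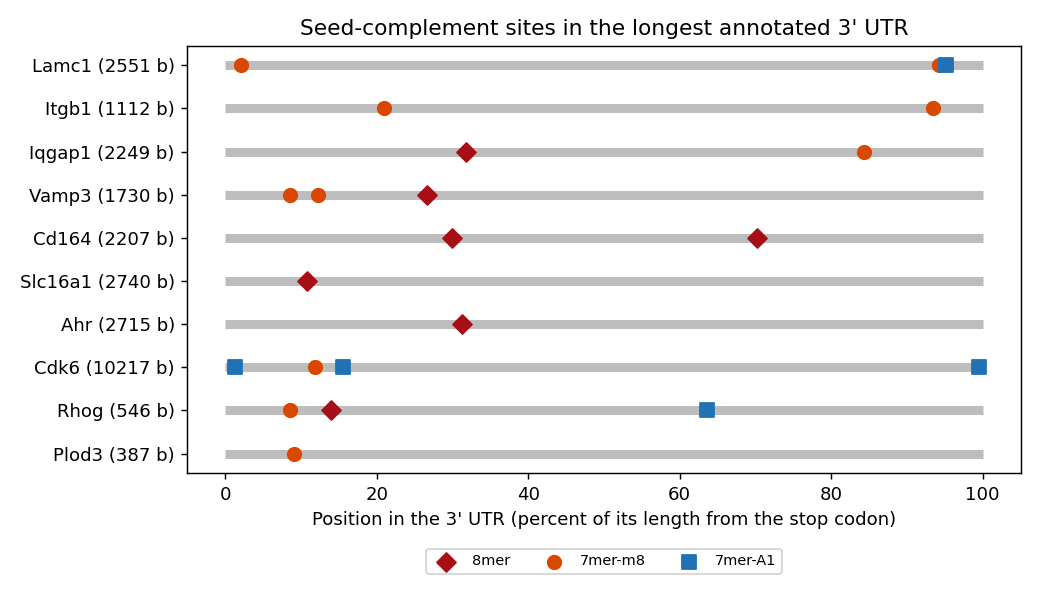
Position of each seed-complement site along the longest annotated 3′ UTR of the 10 genes, as a percent of its length from the stop codon, with the length in bases beside the gene. Diamonds are 8mers, circles 7mer-m8 and squares 7mer-A1 sites, 22 in all, and 7 genes hold 2 or more.

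The 4 libraries held 16317239 (NC, pair A), 17150849 (anti-miR-124, pair A), 17992340 (NC, pair B) and 18726963 (anti-miR-124, pair B) counts. The retina was recognisable in each of them, with summed levels of 10 genes of inner retinal neurons between 540 and 669. A level here is the count per kilobase of gene and per 1000000 counts, with the library totals scaled by TMM (TMM-scaled RPKM). Some libraries stood apart. The summed level of 21 lens genes was 22100 in the pair A NC library and between 52.7 and 71.2 in the others. Genes of microglia and macrophages summed to 219 in the pair B anti-miR-124 library and to between 67.3 and 91.7 in the others, and 15 of these 16 genes were highest in that library. Of 11 tested genes of reactive gliosis, all 11 were highest there too. The 12 listed gliosis genes, with the untested Edn2, had a summed level of 124 there, against 39.3 to 61.8 in the others. The marker genes of Müller glia summed to 577 to 627, and those of the endothelium to 91.6 to 96.8. None of the markers was at 0 in all libraries. In bulk RNA, fewer cells of a type and less RNA per cell cannot be told apart.

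All 10 genes passed the filter on low counts, which kept 17766 genes. Their mean levels over the 4 libraries ran from 49.7 for Cd164 through 35.6 for Itgb1, 16.5 for Vamp3, 13.4 for Iqgap1, 10.7 for Slc16a1, 8.79 for Plod3, 8.45 for Lamc1, 5.97 for Ahr and 5.63 for Cdk6 down to 4.24 for Rhog. The tested genes had a median NC level of 5.53, and the members lay between the percentile 40.3 (Rhog) and 93.7 (Cd164) of the tested genes, so none of them was near the limit of detection. Neighbours in this order whose libraries overlapped were Vamp3 and Iqgap1, Plod3 and Lamc1, Ahr and Cdk6, and Cdk6 and Rhog.

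**Figure D2:**
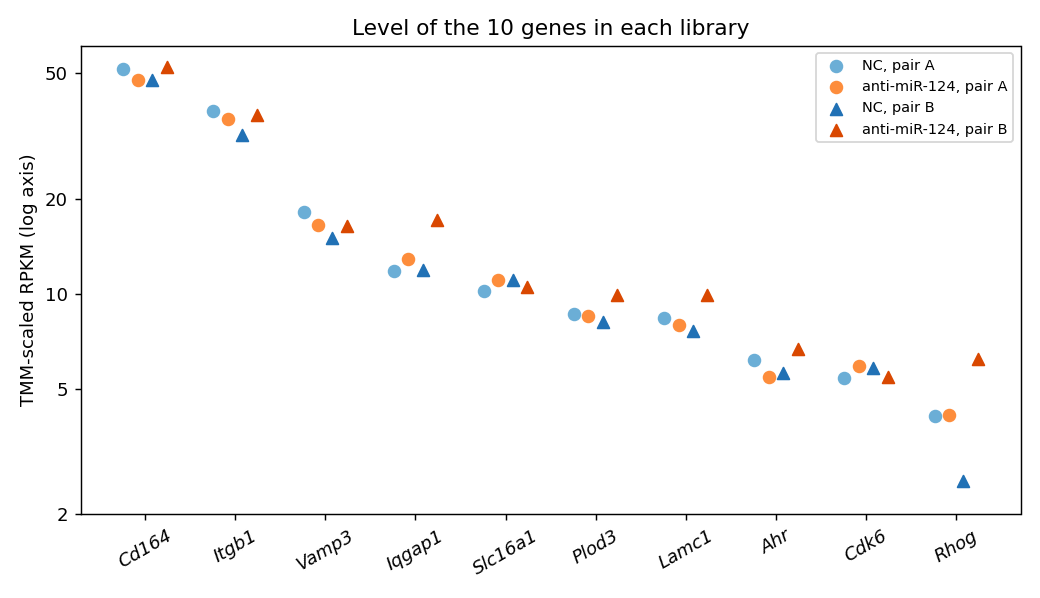
Level of the 10 genes (TMM-scaled RPKM, logarithmic axis) in each of the 4 libraries, in order of the mean level, with circles for pair A, triangles for pair B, blue for NC and orange for anti-miR-124. In 6 genes the pair B anti-miR-124 library is the highest point, and for Iqgap1 and Rhog both orange points lie above both blue points.

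The question asked of these genes is whether they were higher after the antagomir. In the fit of edgeR's quasi-likelihood test, none of the 10 had an adjusted p under 0.05 (Benjamini-Hochberg over all genes tested). Neither did any of the 17766 tested genes (0.0%), and the lowest adjusted p was 0.487 (edgeR). Large changes did not pass either. All 12 listed interferon-stimulated genes were higher in pair A and in pair B. Each had an unadjusted p under 0.05 (edgeR), and their median fitted value was 2.79 on the log2 scale. The lack of genes under the adjusted limit in this fit therefore does not separate small changes from large ones. DESeq2's Wald test also called none of the 10, and 34 genes in all. At an unadjusted p under 0.05, edgeR gave 1 of the 10, Iqgap1, where 3.91% of all tested genes reached this limit. The fitted log2 fold change was above 0 for 9 members and below 0 for Vamp3, with a median of 0.05, while 50.2% of all tested genes lay above 0 with a median of 0.001. These differences were small. The 95% interval held 0 for the 9 genes other than Iqgap1, and outside Iqgap1 and Rhog no interval reached above 0.43 or below -0.27 on the log2 scale.

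The pairs did not move alike. In pair A the antagomir went with a higher level of 4 members and a lower level of 6, with a median log2 ratio of -0.05, against -0.009 over all tested genes. In pair B, 8 were higher and 2 lower, with a median of 0.23, against 0.003 over all tested genes. Higher in both pairs were 2 members, Iqgap1 and Rhog, which is close to the 22.8% of tested genes that were higher in both, and 0 members were lower in both, against 24.0%. On the TPM scale 5 members were higher in both, and so were 32.3% of tested genes, whose median ratio in pair A was then 0.0981. The same 2 members had groups that did not overlap, with both anti-miR-124 libraries above both NC libraries, as had 16.5% of the tested genes, while 0 members lay wholly below, against 16.8%. Lower in pair A and higher in pair B were 6 members (Lamc1, Itgb1, Plod3, Vamp3, Cd164 and Ahr), against 27.8% of tested genes. The pair B anti-miR-124 library was the highest of the 4 for 6 members (Lamc1, Plod3, Iqgap1, Rhog, Cd164 and Ahr), against 30.6% of tested genes. It is also the library with the highest sums of microglia and gliosis genes, whose median log2 ratios in pair B were 1.90 and 2.52 and in pair A -0.23 and -0.41. Their part in the members' ratios was not tested.

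**Figure D3:**
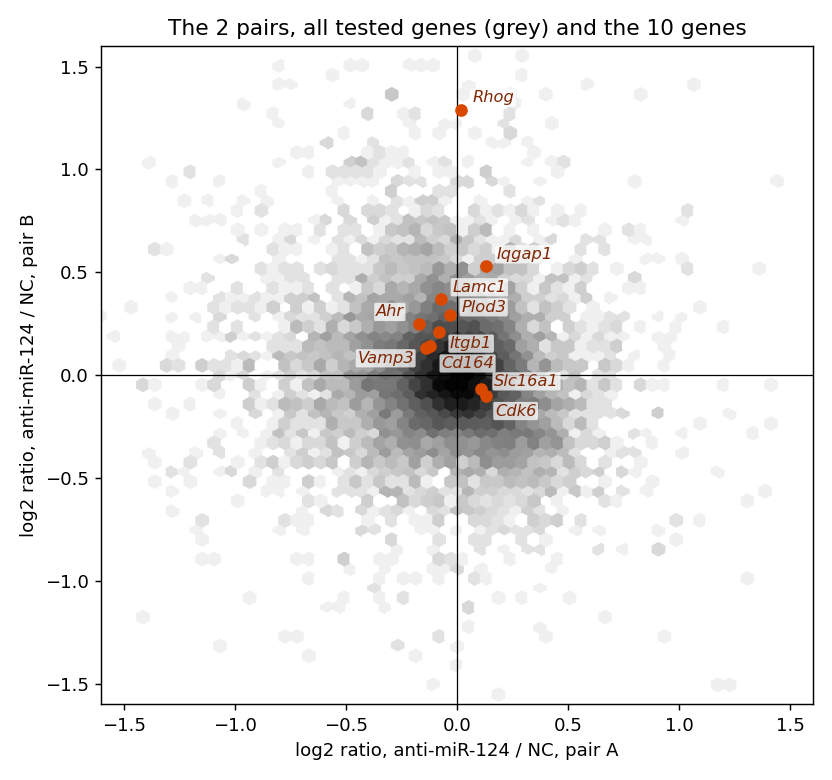
Log2 ratio of the anti-miR-124 to the NC library in pair A (horizontal) and pair B (vertical) for the tested genes with both ratios within 1.6 (grey hexagons, darker for more genes on a logarithmic scale) and for the 10 genes (orange points). Iqgap1 and Rhog lie in the upper right, 6 genes in the upper left, and Slc16a1 and Cdk6 in the lower right.

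Of the genes of adhesion and matrix, Lamc1 encodes the laminin γ1 chain, a part of most laminins of the basement membrane. It lies at chr1:153218922-153332786 on the minus strand. Its levels were 8.37 (NC) and 7.96 (anti-miR-124) in pair A and 7.61 and 9.86 in pair B. The pair B anti-miR-124 library was the highest and the other anti-miR-124 library lay between the NC libraries, so the groups overlapped. In the fit, its log2 fold change was 0.16 (SE 0.11, 95% interval -0.12 to 0.43, adjusted p = 0.989, edgeR). Without the pair B anti-miR-124 library it was -0.0008.

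Itgb1, at chr8:128685654-128733579 on the plus strand, encodes integrin β1, the common partner of the α chains that bind laminin, collagen and fibronectin. Its levels were 37.8 (NC) and 35.8 (anti-miR-124) in pair A and 31.9 and 36.9 in pair B. The 2 NC libraries were here the highest and the lowest of the 4, and the anti-miR-124 libraries lay between them. The log2 fold change of 0.06 (SE 0.10, 95% interval -0.18 to 0.30, adjusted p = 0.989, edgeR) was accordingly smaller than the spread of the NC group, in which pair B was lower than pair A by a log2 ratio of -0.24.

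Plod3, at chr5:136987019-136996646 on the plus strand, encodes a lysyl hydroxylase that also adds the sugars of collagen hydroxylysine. Its levels were 8.64 (NC) and 8.48 (anti-miR-124) in pair A and 8.12 and 9.93 in pair B. Only the pair B anti-miR-124 library stood above the NC libraries. The fitted log2 fold change was 0.14 (SE 0.10, 95% interval -0.11 to 0.38, adjusted p = 0.989, edgeR), and 0.02 without that library. Plod3 overlaps Znhit1 on the opposite strand, with 289 to 345 counts per library, and whether the counting used the strand is not given in the sources used here.

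Among the genes of the cytoskeleton, Iqgap1 had the only interval that did not hold 0. It lies at chr7:80711583-80815549 on the minus strand and encodes a large scaffold that binds actin, active Rac1 and Cdc42, cadherin contacts and MAP kinases. Its counts were 1433 (NC) and 1664 (anti-miR-124) in pair A and 1620 and 2438 in pair B, and its levels 11.8, 12.9, 11.9 and 17.1 in the same order. The NC libraries were nearly equal and both anti-miR-124 libraries were above them, that of pair B by more. Pair A had a log2 ratio of 0.13 and pair B of 0.53. The fitted log2 fold change was 0.34 (SE 0.13, 95% interval 0.03 to 0.66, unadjusted p = 0.0368 and adjusted p = 0.989, edgeR). Without the pair A anti-miR-124 library, its log2 fold change was 0.53, and without that of pair B it was 0.13. With no filter on low counts, Iqgap1 passed the threshold (adjusted p = 0.0166, edgeR). It was then 1 of 379 genes called among the 31982 tested (1.19%). The study had picked Iqgap1 on these same libraries, so its direction is not independent evidence.

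Rhog, at chr7:102239123-102250118 on the minus strand, encodes RhoG, a small GTPase that activates Rac1 through ELMO and DOCK proteins. It was the member with the fewest reads, with 83 (NC) and 89 (anti-miR-124) counts in pair A and 58 and 148 in pair B. Its levels were 4.08 and 4.12 in pair A and 2.54 and 6.21 in pair B. In pair A the libraries were level, with a log2 ratio of 0.02, and in pair B they were the lowest and the highest of the 4, with a ratio of 1.29. The groups therefore did not overlap, but the higher NC and the lower anti-miR-124 value, both of pair A, were nearly equal. Its fitted log2 fold change was 0.65 (SE 0.32, 95% interval -0.12 to 1.42, adjusted p = 0.989, edgeR). It was 0.34 without the pair B NC library, 0.33 without the pair B anti-miR-124 library, and 1.03 without the pair A NC library.

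**Figure D4:**
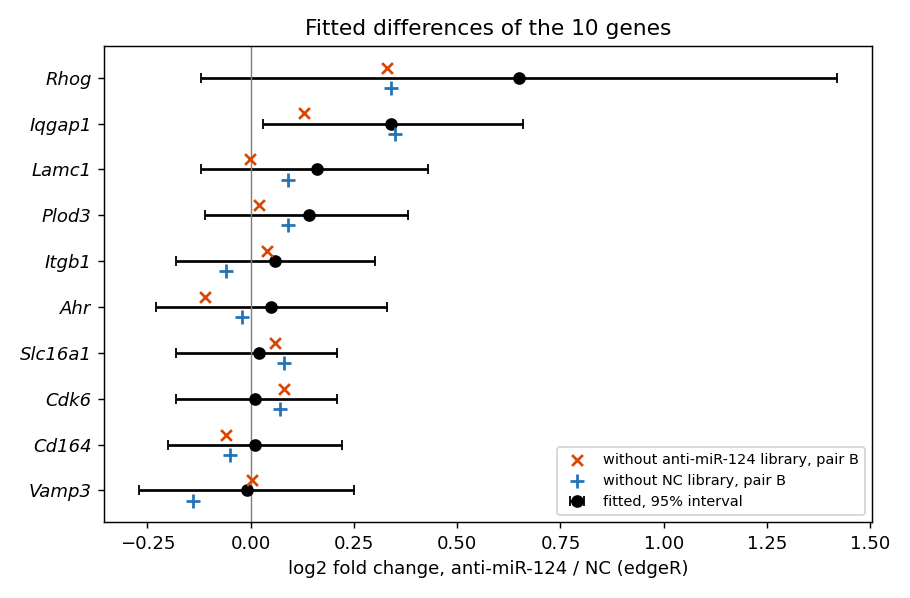
Fitted log2 fold change of anti-miR-124 against NC for the 10 genes (edgeR, black points) with its 95% interval, and the value without the anti-miR-124 library (crosses) or the NC library (plus signs) of pair B. The interval of Iqgap1, 0.03 to 0.66, does not hold 0, and without the pair B anti-miR-124 library its value is 0.13.

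Vamp3 and Cd164 belong to the membranes that carry receptors to and from the surface. Vamp3, at chr4:151047305-151057953 on the minus strand, encodes cellubrevin, the vesicle SNARE of recycling endosomes. Its levels were 18.2 (NC) and 16.5 (anti-miR-124) in pair A and 15 and 16.4 in pair B. The anti-miR-124 libraries were nearly equal and lay between the NC libraries. Vamp3 and Itgb1 were both highest in the pair A NC library, the one with the lens transcripts, whose part in these levels was not tested. The log2 fold change was -0.01 (SE 0.11, 95% interval -0.27 to 0.25, adjusted p = 0.998, edgeR). Like Plod3, Vamp3 overlaps a protein-coding gene on the opposite strand, Gm38529, with 80 to 124 counts per library, so the same limit holds. Genes that overlap the other members had at most 64 counts in a library, reached by LOC108167576 in Itgb1.

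Cd164, at chr10:41519500-41531042 on the plus strand, encodes endolyn, a sialomucin of endosomes, lysosomes and the cell surface. With 2 8mers and the highest level of the 10, it had 2351 (NC) and 2288 (anti-miR-124) counts in pair A and 2430 and 2797 in pair B. The levels were 51.6, 47.4, 47.6 and 52.4 in the same order. The anti-miR-124 libraries were the lowest and the highest of the 4. The log2 fold change was 0.01 (SE 0.09, 95% interval -0.20 to 0.22, adjusted p = 0.998, edgeR), so a change of more than 0.22 on the log2 scale lay outside the interval.

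Slc16a1, at chr3:104638664-104658462 on the plus strand, encodes MCT1, a proton-linked carrier of lactate, pyruvate and ketone bodies. Its levels were 10.2 (NC) and 11.0 (anti-miR-124) in pair A and 11.0 and 10.5 in pair B. The direction was thus upward in pair A and downward in pair B, the reverse of most of the other members, and the groups overlapped. The log2 fold change was 0.02 (SE 0.08, 95% interval -0.18 to 0.21, adjusted p = 0.995, edgeR).

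Cdk6 shared this order. It lies at chr5:3343893-3531008 on the plus strand and encodes a cyclin D-dependent kinase of the G1 phase. Its levels were 5.39 (NC) and 5.90 (anti-miR-124) in pair A and 5.81 and 5.42 in pair B. The anti-miR-124 library was the higher in pair A and the lower in pair B, and the log2 fold change was 0.01 (SE 0.08, 95% interval -0.18 to 0.21, adjusted p = 0.996, edgeR).

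Ahr, at chr12:35497979-35534989 on the minus strand, encodes the aryl hydrocarbon receptor, a transcription factor switched on by ligands such as dioxin and tryptophan derivatives. Its levels were 6.14 (NC) and 5.44 (anti-miR-124) in pair A and 5.60 and 6.68 in pair B. The anti-miR-124 libraries were again the lowest and the highest. For Ahr the log2 fold change was 0.05 (SE 0.12, 95% interval -0.23 to 0.33, adjusted p = 0.989, edgeR), and it was -0.11 without the pair B anti-miR-124 library.

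The partners of these genes in complexes and pathways were then described, from lists chosen for their function. By edgeR with adjustment over all genes, 0 genes of these lists had an adjusted p under 0.05. The counts below are to be read beside the shares of all tested genes, 3.91% with an unadjusted p under 0.05, 22.8% higher and 24.0% lower in both pairs, and 27.8% lower in pair A and higher in pair B. For the adhesion genes, 20 laminin chains and integrin α chains were tested, with a median log2 fold change of -0.05, a median ratio of -0.24 in pair A and 0.11 in pair B. At an unadjusted p under 0.05, 1 was higher and 1 lower. Lama4, the laminin α4 chain of vessel walls, had levels of 2.87 (NC) and 2.23 (anti-miR-124) in pair A and 2.94 and 2.18 in pair B, lower in both pairs with a log2 fold change of -0.40 (SE 0.11, adjusted p = 0.989, edgeR). The 8 genes of mural cells, which surround the vessels, had summed levels of 40.1 and 32.0 in the NC libraries, against 31.7 and 27.2 after the antagomir, and their part in this value was not tested. Itga10, a collagen receptor chain, had 9 (NC) and 28 (anti-miR-124) counts in pair A and 14 and 24 in pair B, with a log2 fold change of 1.11 (SE 0.40, adjusted p = 0.989, edgeR). Itga4, the α chain with the highest NC level, had levels of 14 to 16.4 and a log2 fold change of -0.03 (SE 0.09).

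Like Plod3 itself, most genes of collagen modification had opposite signs in the pairs. Of 10 tested genes, 9 were lower in pair A and higher in pair B, with median ratios of -0.36 and 0.16 and a median log2 fold change of -0.01. None had an unadjusted p under 0.05. P4ha2, a collagen prolyl hydroxylase subunit, had the lowest log2 fold change at -0.44 (SE 0.36) and Crtap, a part of the prolyl 3-hydroxylation complex, the highest at 0.09 (SE 0.32). Ppib, cyclophilin B and the most abundant of the list, had levels between 135 and 152 and a log2 fold change of 0.00 (SE 0.09).

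Of 16 tested small GTPases, IQGAP relatives and exchange factors around Iqgap1 and Rhog, 12 had a fitted value above 0, with a median log2 fold change of 0.04, and 3 were higher and 2 lower in both pairs. Cdc42, which binds IQGAP1, had levels of 105 and 96.1 in the NC libraries, against 96.4 and 91.5 after the antagomir, with a log2 fold change of -0.10 (SE 0.08, adjusted p = 0.989, edgeR). Rac2, the Rac of blood cells, was highest in the pair B anti-miR-124 library, with 93 counts there and 17 to 22 in the other libraries, and had a log2 fold change of 1.49 (SE 0.63, adjusted p = 0.989, edgeR). The sum of microglia and macrophage genes was highest in the same library, and its part in this value was not tested. The lowest was Dock4 at -0.13 (SE 0.08). The median ratios of this list were 0.02 in pair A and 0.06 in pair B.

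Of the SNARE partners of Vamp3, 12 of 13 were in the table and tested, and their median log2 fold change was -0.01. In both pairs 2 were higher and 5 lower. Snap23, the SNAP-25 relative of non-neuronal cells, had levels of 6.99 and 6.47 in the NC libraries, against 4.79 and 5.90 after the antagomir, and a log2 fold change of -0.33 (SE 0.13, adjusted p = 0.989, edgeR). Vamp8, an endosomal SNARE, had 7.19 and 7.05 against 9.17 and 9.99, with a log2 fold change of 0.43 (SE 0.19, adjusted p = 0.989, edgeR). Both had groups that did not overlap, as had 16.8% of all tested genes downward and 16.5% upward. The synaptic Vamp2, at 233 to 253 the most abundant, was at 0.00 (SE 0.07).

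Around Slc16a1, the 7 genes of monocarboxylate transport gave a median log2 fold change of -0.06, while 1 was higher and 3 lower in both pairs. Slc16a8, the MCT3 of the pigment epithelium, had 63 and 67 counts in the NC libraries, against 88 and 107 after the antagomir, and a log2 fold change of 0.51 (SE 0.22, adjusted p = 0.989, edgeR). The summed level of 9 genes of the pigment epithelium was 27.1 and 37.2 in the NC libraries, against 51.9 and 38.8 after the antagomir, and its part in this value was not tested. Slc16a3, the lactate exporter MCT4, was lower in pair A and higher in pair B, with a log2 fold change of -0.33 (SE 0.31). Ldha, the lactate dehydrogenase chain of high level in the retina, had levels of 695 to 839 and a log2 fold change of -0.04 (SE 0.10).

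Of the AHR pathway, 8 of 9 genes were tested, since Cyp1a1 did not pass the filter, and their median log2 fold change was -0.02. Cyp1b1, a cytochrome induced by AHR, had levels of 7.86 and 6.69 in the NC libraries, against 4.64 and 6.37 after the antagomir, with a log2 fold change of -0.40 (SE 0.16, adjusted p = 0.989, edgeR). Nqo1, a quinone reductase, had 18 to 48 counts per library and a log2 fold change of 0.48 (SE 0.40). Hsp90ab1, the chaperone that holds the unbound receptor, was level at 467 to 502, with a log2 fold change of -0.03 (SE 0.05).

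For Cdk6, 10 of 12 genes of the CDK4/6 module were tested, and the medians were 0.06 for the log2 fold change, -0.11 in pair A and 0.14 in pair B. Cdk4, the related kinase, was the most abundant of the list. Its levels were 61.3 and 57.1 in the NC libraries, against 64.4 and 69.7 after the antagomir. For Cdk4 the groups thus did not overlap, with the anti-miR-124 libraries higher, as in 16.5% of all tested genes. Its log2 fold change was 0.18 (SE 0.08, adjusted p = 0.989, edgeR). Ccnd2, a D-type cyclin, was lower in pair A (4.2 to 2.25) and higher in pair B (2.17 to 5.04). Rb1, the substrate of these kinases, was lower in both pairs, with 1915 and 2098 counts in the NC libraries, against 1804 and 1982 after the antagomir, and a log2 fold change of -0.16 (SE 0.07, adjusted p = 0.989, edgeR).

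A further list held 19 other reported targets of miR-124. Of them, 15 had a fitted value above 0, as had 50.2% of all tested genes, with a median log2 fold change of 0.04, and 14 were lower in pair A and higher in pair B (27.8% of all tested genes), with medians of -0.08 and 0.14. The pair B anti-miR-124 library was the highest for 15 of the 19, against 30.6% of all tested genes. At an unadjusted p under 0.05, 2 were higher and 0 lower, against 3.91% of all tested genes in either direction. Nothing particular to this list is read from these counts, which rest on the same libraries as those of the 10 genes. Ctdsp1, a small phosphatase that serves the REST repressor of neuronal genes, had levels of 9.53 and 9.46 in the NC libraries, against 11.6 and 11.9 after the antagomir. The libraries of each group were nearly equal and the log2 ratio was alike in the pairs, at 0.29 and 0.33, closer to each other than those of Iqgap1 or Rhog. Its log2 fold change was 0.31 (SE 0.08, 95% interval 0.12 to 0.50, unadjusted p = 0.0065 and adjusted p = 0.989, edgeR). Nr3c1, the glucocorticoid receptor, had 13.5 and 13.7 against 15 and 15.7, and a log2 fold change of 0.17 (SE 0.07, adjusted p = 0.989, edgeR). Cebpa, a transcription factor of myeloid cells, had 164 counts in the pair B anti-miR-124 library and 23 to 35 in the other libraries, with a log2 fold change of 1.57 (SE 0.77, adjusted p = 0.989, edgeR), the same library that had the most microglia and macrophage RNA, whose part was not tested. The lowest was Snai2 at -0.48 (SE 0.41), from 10 to 15 counts, and the most abundant, Neurod1, had 0.03 (SE 0.07).

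The genes were last set beside all genes with the same motifs. Over 3284 tested genes with any site, the median log2 fold change was 0.0222, and over 10547 without one 0.00316. The share of genes above 0 was 57.5% with a site and 51.0% without. For genes whose best site was an 8mer, of which 476 were tested, the median was 0.0429 and 62.2% lay above 0, for the 1710 genes with a 7mer-m8 it was 0.028, and for the 1098 with a 7mer-A1 0.00652. As with the members, the pairs differed. For the 8mer genes the median log2 ratio was 0.00324 in pair A against 0.087 in pair B, and for genes with no site -0.00191 against 0.00168. Over all annotated genes, tested or not, the 4126 with a site had longer 3′ UTRs than the 16840 without. The medians were 2178 and 762 bases, and the part of this length was not tested. Among genes with a 3′ UTR between 387 and 2740 bases, those with a site had a median of 0.0273 and the whole class 0.0105. This order held in pair B, with 0.0605 against 0.0148, and turned in pair A, with -0.0122 against -0.00125. Of the genes with at least 10000 bases, the class of Cdk6, the 40 tested genes with a site had a median of -0.00836 and the whole class of 49 had -0.0166. Genes share libraries and are not replicates, so these medians are given without a test. The 10 members, with a median of 0.05, -0.05 in pair A and 0.23 in pair B, had the same order of pairs as the 8mer genes, with wider differences. Of the members, 6 are themselves 8mer genes. This order was not particular to genes with sites. Every partner list had it, such as collagen modification (-0.36 and 0.16) and the laminin and integrin chains (-0.24 and 0.11). Marker genes of rods, inner retinal neurons, endothelium and pigment epithelium had the reverse order.

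**Figure D5:**
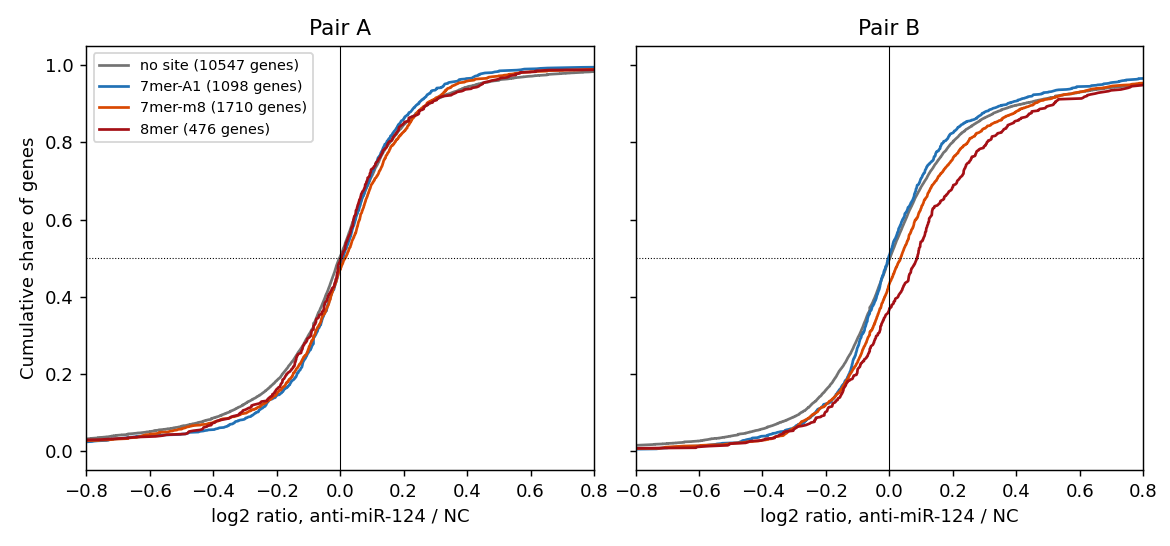
Cumulative share of tested genes (vertical) by the log2 ratio of the anti-miR-124 to the NC library (horizontal, cut at -0.8 and 0.8) in pair A and pair B, for genes with no site and for genes whose best 3′ UTR site is a 7mer-A1, 7mer-m8 or 8mer. In pair A the curves cross near 0, and in pair B the 8mer curve lies to the right, with a median of 0.087 against 0.00168 for genes with no site.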

How the data were processed

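The authors deposited raw read counts per gene, not normalized, for 2 anti-miR-124 and 2 NC libraries, with gene lengths and positions. The submitters' processing notes name HISAT2 and the build mm9, but of 36834 symbols matched to RefSeq, 99.8% overlapped their GRCm38 positions, so coordinates are given as GRCm38. The counting tool and its strand setting are not given in the sources used here. The kit was directional. The 4 deposited RPKM columns were not used. Columns were assigned to groups by the eye they name.

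Counts were tested with edgeR 4.0.16 in R 4.3.3 (quasi-likelihood test, TMM, filterByExpr, no covariate, both directions, Benjamini-Hochberg adjustment, threshold 0.05), and 17766 genes (36.3%) were kept. The code was tested on simulated data. DESeq2 1.42.0, other scalings and filters, a replicate block and leaving out each library were alternatives. Any 2 libraries differed by a chi-square of at least 3.44 per degree of freedom, so none is a copy of another. The biological coefficient of variation was 14.5%, and at these totals counting error matters mainly for Rhog and the partners with few counts. The p-values measure the spread between these mixed samples.

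Over genes, libraries with the same number deviated from their groups with a correlation of -0.16, so the number was not taken to pair the samples in the test. The ratios in each pair are of TMM-scaled RPKM, whereas the study's rule on replicates uses TPM, which was an alternative. By TPM, 5 members in place of 2 were higher in both pairs, and 32.3% of all tested genes in place of 22.8%.

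The members and lists were chosen with earlier results of these data known. Named in the text are the 10 members and, of each partner list, the gene with the highest NC level, the highest and the lowest fitted log2 fold change, and every gene with an unadjusted p under 0.05. Sites were searched in the longest 3′ UTR of each gene in GENCODE M21.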

Additional observations from a re-analysis of the deposited data

How the results depend on the processing

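With all 4 libraries, 88 of 90 results for the members under 9 alternatives kept their direction and their side of the threshold. The exceptions were Vamp3, whose log2 fold change was 0.00074 with total counts in place of TMM, and Iqgap1, which was called without the filter. Members called by edgeR were 0, 1 without the filter on low counts, and 0 to 1 when each library was left out. Members with an unadjusted p under 0.05 were 1, 2 without the filter (Iqgap1 and Rhog; 4.93% of all genes tested there), 2 with the crossed replicate block (7.35%), and 0 to 4 without 1 library (4, Lamc1, Plod3, Iqgap1 and Rhog, without the pair A anti-miR-124 library, where 10.1% of all tested genes passed, against 3.91%). Over all genes, 0 were called, 379 without the filter, 34 by DESeq2, 160 with the crossed replicate block, which was added after the data were seen, and 0 to 256 without 1 library. With the replicate block, 0 genes and 0 members were called and 1 member had an unadjusted p under 0.05, and it changed no other call. By TPM, in which the lens genes of 1 NC library take part of the sum, 5 members were higher in both pairs, against 32.3% of all tested genes (14.8% lower in both), and 2 with the lens genes left out of the sum, against 23.2%. Sites counted as 8mers only left 6 members with a site, and the median of genes with a site was then 0.0429. Without 1 library, 12 of 40 member results reversed, in 7 genes, over ranges of -0.0008 to 0.30 (Lamc1), -0.06 to 0.19 (Itgb1), -0.14 to 0.14 (Vamp3), -0.06 to 0.08 (Cd164), -0.04 to 0.08 (Slc16a1), -0.11 to 0.19 (Ahr) and -0.05 to 0.08 (Cdk6). A lone library in a group is assumed there to vary like the others. The causes of these shifts were not tested, except for the part of the lens genes in the TPM sum. Leaving out a library also leaves fewer samples.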
